A study of Homo sapiens with 12 samples.

Results

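Protocadherins, the largest family of cadherin adhesion proteins, were followed from human embryonic stem cells to neural progenitor cells. Members were all gene symbols that consist of PCDH and further capital letters or digits, without a pseudogene ending, which gave 67 of the 59050 genes counted. They fell into 16 genes of the alpha cluster, 16 of the beta cluster, 22 of the gamma cluster and 13 non-clustered genes. The rule used the symbol and no measured value, but it was set with earlier results of these data known. Neural progenitor cells (NPC) were made from the wild-type embryonic stem cell line HUES8 by 7 days of neural induction with 2.5 uM SB431542, which blocks the TGF-beta, activin and Nodal receptors, and 0.05 uM LDN193189, which blocks BMP receptors, with SB431542 left out for the last 2 days. The undifferentiated HUES8 cells, of the same genotype and with neither inhibitor, are called ESC. Total RNA without ribosomal RNA, and RNA bound to ribosomes, were each sequenced in 3 libraries per state, 12 in all. The labels do not say whether the libraries came from separate cultures, so p-values measure the spread between these samples, which may be technical.

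The alpha, beta and gamma protocadherins lie next to each other on the long arm of chromosome 5. An alpha or gamma gene is a variable exon with its own promoter, spliced to constant exons that the whole cluster shares, while a beta gene is a single coding exon. The variable exon encodes the extracellular cadherin repeats, the transmembrane segment and part of the cytoplasmic tail, and the proteins bind identical proteins on facing cells, which lets neurites of a neuron recognise and avoid each other. In neurons each cell uses a few of the promoters, chosen largely at random, and CTCF and cohesin join a chosen promoter to a distant enhancer. The C-type genes at the 3' ends of the alpha and gamma clusters (PCDHAC1, PCDHAC2, PCDHGC3, PCDHGC4 and PCDHGC5) are expressed more constitutively in mouse neurons. Non-clustered protocadherins, most of them of the delta group, are separate genes that act in cell sorting, migration and axon growth.

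Most promoters of the clusters carry a short conserved element around the letters CGCT, the CGCT box. RefSeq sequences from 250 bases before to 50 bases after a transcript start (GRCh38.p14) were matched by symbol for 58 of the 67 members. The windows shown are 18 bases before the core, the core in capitals and 4 bases after it, on the plus strand. They were chosen to set genes whose RNA differed between the states beside close relatives with another change. Each core is the CGCT closest to a longer word of its cluster, given below. From that word PCDHA11 differs by 1 base, PCDHB1 and PCDHAC1 by 2, and PCDHAC2 and PCDHGB7 by 3. CGCT alone is common in promoters, so those windows need not hold the element. A window with an exact word, such as that of PCDHGC4, need not hold it either. Alpha genes come first, then beta and gamma genes.
PCDHA2, chr5:140794779-140794804: cttttagccacatgatgtCGCTgtcc
PCDHA8, chr5:140841128-140841153: tttgaagccacatgatgtCGCTgtct
PCDHA11, chr5:140868881-140868906: gttttaggcgcaaggtgtCGCTcttt
PCDHAC1, chr5:140926218-140926243: aagcctagaaggtgtggtCGCTcacg
PCDHAC2, chr5:140966363-140966388: ggctgagcagtccgggttCGCTgtcc
PCDHB1, chr5:141051272-141051297: tagactggggagttgagtCGCTcaat
PCDHB7, chr5:141172564-141172589: ccacaaaacgcaaggtggCGCTgctg
PCDHB10, chr5:141192297-141192322: gtggaggccacacggtggCGCTgcag
PCDHB15, chr5:141245312-141245337: aaagacaacgcatggtggCGCTgcag
PCDHGA5, chr5:141364105-141364130: ggttaggactctgagtgtCGCTgttg
PCDHGB4, chr5:141387615-141387640: agtgctgactctgggcgcCGCTgttg
PCDHGB5, chr5:141397861-141397886: agtgctgactctgggcgcCGCTgttg
PCDHGB7, chr5:141417605-141417630: cggccagtgcagagcaagCGCTgacg
PCDHGC4, chr5:141484950-141484975: ttggctgagcccgggagcCGCTgtct

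Each cluster had its own spelling of the element. The core CGCT itself, searched on both strands, was in 12 of 13 alpha, 14 of 14 beta, 20 of 20 gamma and 10 of 11 non-clustered promoters, but also in 70.0% of all 35116 promoters of this length. Longer words were rarer. ATGTCGCT was in 9 of 13 alpha promoters, against 0.234% of all promoters, and GTGGCGCT was in 13 of 14 beta promoters, against 1.15%. GCCGCTGT was in 11 of 20 gamma promoters, against 1.63%. GTCGCTGT, which can overlap ATGTCGCT, was in 6 of 20 gamma and 5 of 13 alpha promoters, against 0.652%. None of the 4 longer words was in a non-clustered promoter. These words were chosen after the promoters had been read, so the shares are a description. The TATAAA box was in 3 of 13 alpha, 1 of 14 beta, 2 of 20 gamma and 3 of 11 non-clustered promoters, against 11.5% of all, and the CTCF core, CCNCNAG directly followed by NNGGC, in 0, 1, 0 and 1 of them, against 3.36%. A match is not a binding site, and no match says only that these letters were not in the window.

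**Figure D1:**
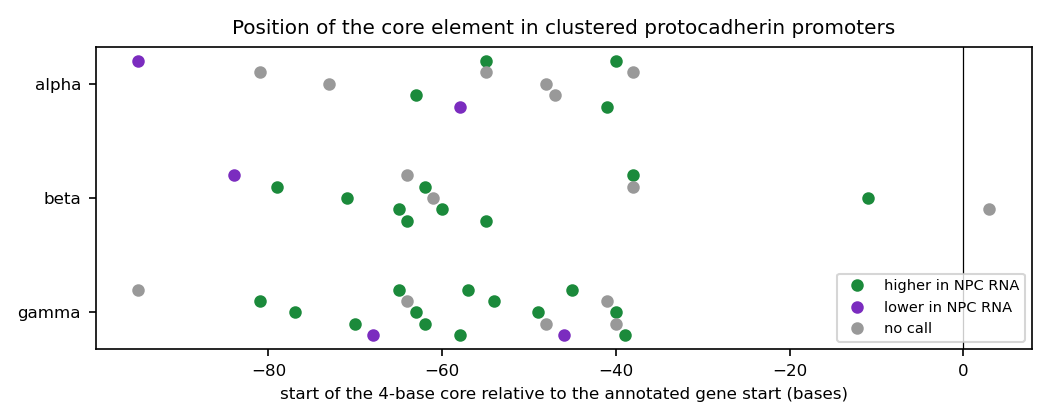
Start of the CGCT core closest to its cluster's spelling, in bases from the annotated gene start (horizontal axis), for the 12 alpha, 14 beta and 20 gamma promoters that hold one; each point is a gene, coloured by its RNA call between NPC and ESC. Median positions were -55, -61.5 and -57.5 bases, and most higher, lower and uncalled genes lie in the same stretch.

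The RNA libraries held 19529738 to 35117370 counts and the ribosome-bound libraries 2422756 to 4451196, so that 3 counts, the limit a count of 0 allows, were 0.0839 to 0.153 CPM (the deposited counts scaled to library size with TMM) in RNA and 0.684 to 1.30 CPM in ribosome-bound RNA. Such limits, and intervals of count ratios, cover counting error only, since the reads carry no molecular identifiers. ESC RNA replicate 3 stood apart from the other 2 (Pearson r across genes of 0.976 and 0.980, against 0.996 between them), and so did ribosome-bound ESC replicate 2 (0.927 and 0.940, against 0.976). All 5 stem cell markers (POU5F1, NANOG, TDGF1, DPPA4, ZFP42) were lower and all 5 progenitor markers (PAX6, SOX1, OTX2, LHX2, ZEB2) were higher in NPC RNA. Of 5 neural crest markers 4 were higher, with a summed RNA level of 176.9 to 178.4 CPM in NPC, against 8.43 to 17.9 CPM in ESC. The sum of 6 neuron markers was 30.9 to 33.6 CPM in NPC RNA, against 81.3 to 108.5 CPM in ESC RNA. Most of that sum was SYT1, with means of 22.59 CPM in NPC RNA and 72.45 CPM in ESC RNA. Of the 6, 4 were lower in NPC RNA, ELAVL3 was higher and STMN2 had no call. The 6 mesoderm and endoderm markers summed to 0.862 to 1.12 CPM in NPC RNA, against 10.7 to 11.9 CPM in ESC RNA, and to 1.97 to 4.20 CPM in ribosome-bound NPC RNA, against 252 to 289.2 CPM in ribosome-bound ESC RNA. What part these cell types have in the results was not tested. In bulk samples fewer cells of a type and less RNA per cell cannot be told apart.

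Protocadherin RNA was higher in NPC in all 3 clusters and lower for a small set of members. Of the 67 members, 63 had enough RNA counts to be tested, and 36 of them (57.1%) were higher in NPC and 9 (14.3%) were lower (edgeR quasi-likelihood test, Benjamini-Hochberg adjusted p under 0.05 over all 18631 genes tested). Among all genes tested, 26.4% were higher and 26.2% lower, 52.6% in either direction. At least 2-fold higher were 21 members, against 14.4% of all genes tested. The median log2 fold change of the 63 members was 0.64, against 0.03 over all genes tested. By class, 6 alpha genes were higher and 3 lower of 15, 11 beta genes higher and 1 lower of 16, 14 gamma genes higher and 2 lower of 22, and 5 non-clustered genes higher and 3 lower of 10. The filter kept 5 members whose 3 libraries all passed only in NPC (PCDHA6, PCDHA7, PCDHA8, PCDHB6 and PCDHB7) and 2 that did so only in ESC (PCDHB1 and PCDH8). Such a member could pass only by being high in that state. Of the 56 members whose libraries all passed in both states, 33 were higher and 7 lower, against 24.8% and 25.9% of all genes that passed in both. Without ESC RNA replicate 3, 44 members were higher and 10 lower.

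Every NPC library lay above every ESC library for 8 of 15 alpha, 13 of 16 beta, 16 of 22 gamma and 5 of 10 non-clustered genes, against 32.9% of all genes tested. Every NPC library lay below every ESC library for 4, 1, 2 and 3 of them, against 29.9%. Summed over its genes, the beta cluster stood at 219.6 ± 3.61 CPM in NPC RNA and 124.4 ± 8.68 CPM in ESC RNA (SD, n = 3 each), 1.77-fold. The gamma cluster stood at 274.3 ± 7.57 CPM in NPC and 156.3 ± 6.03 CPM in ESC, 1.76-fold (1.84-fold with total counts as the scale). The alpha cluster differed less, with 136.6 ± 0.232 CPM in NPC and 114.8 ± 4.67 CPM in ESC, 1.19-fold (1.25-fold with total counts as the scale). Non-clustered genes summed to 592.4 ± 11.7 CPM in NPC and 467.7 ± 72.6 CPM in ESC, 1.27-fold. The libraries of the states did not overlap in any of these 4 sums.

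Within the beta cluster PCDHB7, PCDHB11 and PCDHB10 had the largest rises. PCDHB7 was at 2.37, 1.68 and 2.17 CPM in NPC RNA, against 0.256, 0.12 and 0.0511 CPM in ESC RNA. All NPC libraries were higher, with a log2 fold change of 3.83 ± 0.40 (SE, adjusted p = 0.00013, edgeR). The ESC libraries held 9 PCDHB7 reads in all, and without ESC RNA replicate 1 the log2 fold change was 4.43. PCDHB11 stood at 15.7, 15.4 and 15.1 CPM in NPC, against 2.45, 1.92 and 2.15 CPM in ESC, a log2 fold change of 2.83 ± 0.16 (adjusted p = 4.1e-06). PCDHB10 stood at 13.5, 13.1 and 14.8 CPM in NPC, against 1.94, 2.48 and 2.76 CPM in ESC, with 2.53 ± 0.17 (adjusted p = 1.32e-05). Both genes were far apart between the states, with no overlap. PCDHB15 was higher at a larger level, 44.2, 41.8 and 40.8 CPM in NPC against 20.2, 18.6 and 23.3 CPM in ESC (log2 fold change 1.03 ± 0.13, adjusted p = 0.000311).

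PCDHB1, the first beta gene and the furthest from the others, was the beta gene that fell, and it is named after its values were seen. Its level was 0.15, 0.028 and 0.297 CPM in NPC RNA, against 0.818, 0.719 and 0.869 CPM in ESC RNA, a log2 fold change of -2.31 ± 0.55 (adjusted p = 0.00836, edgeR), or -3.21 without NPC RNA replicate 3. PCDHB1 was also the beta promoter of 14 without the word GTGGCGCT. Of the 13 with the word, 9 rose in RNA and 4 had no RNA call. Per kilobase of RefSeq gene span, which beta genes allow because their coding region is a single exon, PCDHB2 had the highest RNA level of the cluster in both states, 19.4 ± 0.504 CPM per kb in NPC and 13.4 ± 0.472 in ESC (SD, n = 3 each). PCDHB15 followed with 10.6 ± 0.445 CPM per kb in NPC and 5.22 ± 0.601 in ESC. The share of PCDHB2 in all beta counts was 36.1% ± 1.13 in NPC RNA and 44.2% ± 2.83 in ESC RNA. The order behind PCDHB15 differed between the states. PCDHB5 (4.41 ± 0.131), PCDHB10 (4.19 ± 0.258) and PCDHB11 (3.70 ± 0.0724) came next in NPC, where PCDHB5 and PCDHB10 were within their spread of each other. PCDHB16 (2.54 ± 0.433), PCDHB5 (2.26 ± 0.288) and PCDHB3 (1.82 ± 0.22) came next in ESC, and each was within the spread of its neighbour.

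In the gamma cluster the B subfamily gained most. Summed PCDHGB RNA was 131.6 ± 2.14 CPM in NPC and 61.9 ± 1.07 CPM in ESC, 2.13-fold. PCDHGA RNA was 91.8 ± 4.01 CPM in NPC and 64.98 ± 5.25 CPM in ESC, 1.41-fold, and PCDHGC RNA was 50.9 ± 1.63 CPM in NPC and 29.4 ± 4.46 CPM in ESC, 1.73-fold. PCDHGB thus took 47.5%, 47.9% and 48.6% of gamma counts in the NPC RNA libraries, against 38.7%, 40.3% and 39.95% in the ESC RNA libraries. PCDHGA took 33.7%, 33.8% and 32.8% in NPC, against 41.5%, 38.9% and 44.3% in ESC. Neither share overlapped between the states, while that of PCDHGC did. The deposited counts do not say how reads on the constant exons, which overlap all 22 gamma genes in the annotation, or reads shared by near-identical paralogs were assigned, so these levels and shares are those of the authors' counting.

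**Figure D2:**
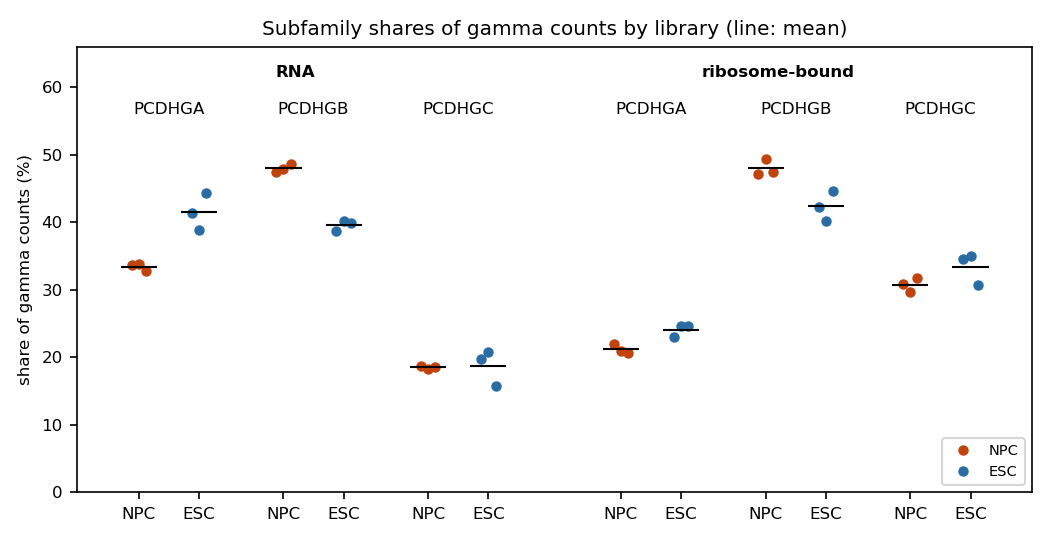
Share of all gamma protocadherin counts taken by the PCDHGA, PCDHGB and PCDHGC subfamilies (vertical axis, %), for each NPC and ESC library of both assays; points are libraries and lines are means of 3. PCDHGB shares of 47.2% to 49.4% in NPC lie above those of 38.7% to 44.7% in ESC in both assays.

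Of the 7 PCDHGB genes, 5 rose and 1 fell in NPC RNA. PCDHGB7 stood at 49.9, 48.9 and 46.4 CPM in NPC, against 17.6, 17 and 15.6 CPM in ESC, a log2 fold change of 1.53 ± 0.11 (adjusted p = 2.08e-05, edgeR). PCDHGB6 stood at 32.8, 33.5 and 32.7 CPM in NPC, against 11.5, 13.2 and 12.3 CPM in ESC, with 1.42 ± 0.12 (adjusted p = 3.75e-05). For both genes the lowest NPC library was over 2 times the highest ESC library. PCDHGB2 rose too, at 9.24, 8.81 and 7.94 CPM in NPC against 3.94, 2.64 and 2.91 CPM in ESC, with a log2 fold change of 1.46 ± 0.19 (adjusted p = 0.000378). PCDHGB4 and PCDHGB5, whose 26-base promoter windows are identical, went opposite ways. PCDHGB4, named after its values were seen, stood at 25.7, 25.5 and 25.7 CPM in NPC RNA, against 13.4, 11.2 and 12.6 CPM in ESC RNA (log2 fold change 1.05 ± 0.12, adjusted p = 0.000255). PCDHGB5 stood at 4.25, 4.42 and 4.9 CPM in NPC RNA, against 8.64, 9.62 and 8.43 CPM in ESC RNA (log2 fold change -0.98 ± 0.14, adjusted p = 0.000786). The states did not overlap for either gene.

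Of the 12 PCDHGA genes, 6 rose and 1 fell. PCDHGA10, the PCDHGA gene with the most counts, was at 56.2, 53 and 47.3 CPM in NPC RNA, against 39.3, 36.6 and 40.1 CPM in ESC RNA. Its log2 fold change of 0.43 ± 0.11 (adjusted p = 0.0134, edgeR) lost the call without ESC replicate 1 or 2 or without NPC replicate 1 or 2 (adjusted p = 0.0603 to 0.0731). PCDHGA3 was at 0.676, 0.559 and 0.476 CPM in NPC, against 1.53, 0.878 and 1.33 CPM in ESC, a log2 fold change of -1.12 ± 0.30 (adjusted p = 0.0147). That call was lost without ESC replicate 1 or without NPC replicate 2 or 3 (adjusted p = 0.0518 to 0.0603). The 3 C-type gamma genes all rose. PCDHGC3 was at 23.4, 22.6 and 22.1 CPM in NPC RNA, against 14.3, 14.7 and 10.8 CPM in ESC RNA (log2 fold change 0.77 ± 0.15, adjusted p = 0.0032). PCDHGC4 was at 25.2, 24 and 24 CPM in NPC, against 15.2, 15.6 and 12.5 CPM in ESC (0.76 ± 0.13, adjusted p = 0.00196). For both the lowest ESC library was replicate 3. PCDHGC5 was at 4.1, 3.83 and 3.51 CPM in NPC, against 2.86, 1.32 and 1.02 CPM in ESC (1.15 ± 0.33, adjusted p = 0.0207). The call of PCDHGC5 was lost without ESC replicate 2 or without NPC replicate 1 or 2 (adjusted p = 0.0574 to 0.0635).

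The alpha cluster mixed rises and falls, and its C-type pair divided. PCDHAC1 was at 40.5, 38.1 and 36.1 CPM in NPC RNA, against 21.1, 18.6 and 17.7 CPM in ESC RNA, a log2 fold change of 1.00 ± 0.12 (adjusted p = 0.000311, edgeR). PCDHAC2 was at 12.7, 12.4 and 12.1 CPM in NPC, against 26.2, 21.9 and 16.7 CPM in ESC, a log2 fold change of -0.80 ± 0.18 (adjusted p = 0.00586). Neither gene overlapped between the states, and the lowest ESC value of PCDHAC2 was that of replicate 3, which stood apart. PCDHAC1 took 28.0% ± 1.59 of alpha counts in NPC RNA and 16.7% ± 0.817 in ESC RNA, whereas PCDHAC2 took 9.06% ± 0.181 in NPC and 18.7% ± 3.47 in ESC (SD, n = 3 each). The constant exons shared by the 15 protein-coding alpha genes carry the same limit as those of the gamma cluster.

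Among the other alpha genes, PCDHA8, PCDHA3 and PCDHA2 had the largest rises. PCDHA8 stood at 1.2, 1.34 and 1.78 CPM in NPC RNA, against 0.46, 0.599 and 0.256 CPM in ESC RNA (log2 fold change 1.68 ± 0.33, adjusted p = 0.00357, edgeR). PCDHA3 stood at 2.78, 2.63 and 2.56 CPM in NPC, against 0.869, 0.878 and 1.12 CPM in ESC (1.47 ± 0.19, adjusted p = 0.000428). PCDHA2 stood at 4.13, 4.64 and 3.75 CPM in NPC, against 2.04, 1.88 and 1.94 CPM in ESC (1.10 ± 0.17, adjusted p = 0.000927). None of the 3 overlapped between the states. PCDHA10, which with PCDHAC1 and PCDHAC2 made up the 3 alpha genes highest in RNA counts, was at 31.4, 29.8 and 31.8 CPM in NPC, against 19.9, 20.8 and 22.9 CPM in ESC, and rose by 0.55 ± 0.12 (adjusted p = 0.00494). PCDHA11 and PCDHA13 fell. PCDHA11 was at 6.99, 7.58 and 7.52 CPM in NPC, against 11.8, 13.4 and 14.2 CPM in ESC (log2 fold change -0.83 ± 0.14, adjusted p = 0.00146). PCDHA13 was at 3.12, 3.13 and 3.6 CPM in NPC, against 5.32, 4.35 and 5.21 CPM in ESC, and fell by 0.59 ± 0.16 (adjusted p = 0.0148), a call lost without NPC replicate 1 or 2 (adjusted p = 0.0654 and 0.0696). Of the 9 alpha promoters with ATGTCGCT, 3 genes rose in RNA and 6 had no RNA call. Of the 3 with a CGCT core but not that word (PCDHA11, PCDHAC1 and PCDHAC2), 1 rose and 2 fell. In the gamma cluster, of 17 genes with an exact gamma word 11 rose and 2 fell in RNA. Of the 3 gamma genes without one, 2 rose and 0 fell. Both gamma genes that fell, PCDHGA3 and PCDHGB5, carry a gamma word. PCDHA14, which RefSeq lists as a pseudogene, had 0 counts in all 12 libraries.

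Position along a cluster went only weakly with the change. Spearman's rho between gene start and RNA log2 fold change was -0.411 over 15 alpha genes, 0.324 over 16 beta genes and 0.438 over 22 gamma genes. These points share libraries and, in 2 of the clusters, overlapping annotation, so they are given as a description.

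**Figure D3:**
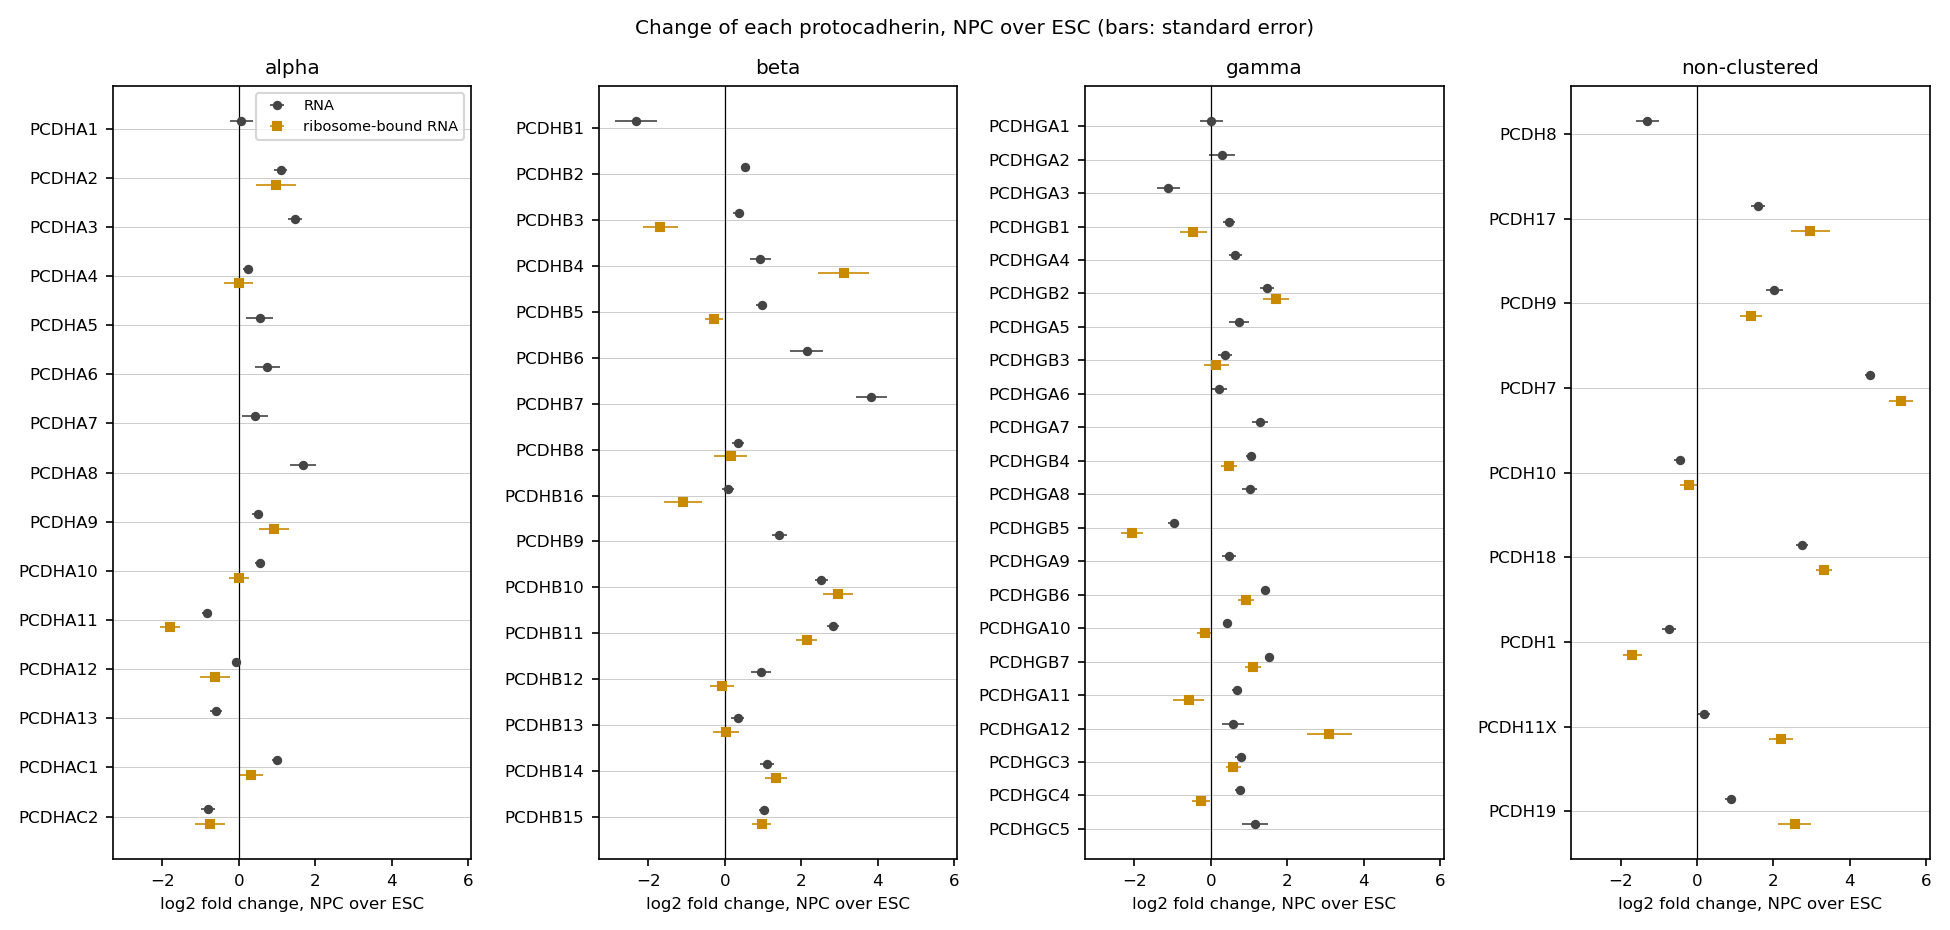
log2 fold change of NPC over ESC (horizontal axis) in RNA (grey circles) and ribosome-bound RNA (yellow squares) for tested protocadherins by class; bars are standard errors from edgeR, and ribosome-bound values are shown for tested genes with more than 3 ESC counts. Ribosome-bound changes lie to the left of RNA changes for PCDHB3, PCDHB5, PCDHGB5, PCDHA11 and PCDH1 and to the right for PCDH11X and PCDH19.

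Among the non-clustered protocadherins PCDH7, PCDH18 and PCDH9 had the largest rises. PCDH7, a delta-1 protocadherin of the neural plate and its derivatives, was at 67.4, 63.7 and 67.1 CPM in NPC RNA, against 3.07, 2.79 and 2.71 CPM in ESC RNA. Its log2 fold change was 4.53 ± 0.13 (adjusted p = 2.62e-07, edgeR). PCDH18, a delta-2 protocadherin that binds the adaptor DAB1 in mouse, was at 214, 216 and 241 CPM in NPC, against 29.9, 29.7 and 40.9 CPM in ESC, a log2 fold change of 2.74 ± 0.15 (adjusted p = 4.18e-06). Both genes were far apart between the states in every library. PCDH9, of the delta-1 group, stood at 6.95, 6.15 and 6.48 CPM in NPC, against 1.84, 1.88 and 1.07 CPM in ESC (2.02 ± 0.22, adjusted p = 0.00015). PCDH17, named after its values were seen, rose by 1.605 ± 0.18 (adjusted p = 0.000201) and PCDH19, the gene of an X-linked epilepsy and a partner of N-cadherin, by 0.88 ± 0.15 (adjusted p = 0.00192) on the log2 scale. PCDH19 RNA was at 8.87, 10.4 and 10.9 CPM in NPC, against 4.91, 5.75 and 5.78 CPM in ESC.

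PCDH1, a delta-1 protocadherin found in epithelia, fell. It was at 231, 216 and 200 CPM in NPC RNA, against 406, 410 and 256 CPM in ESC RNA, a log2 fold change of -0.73 ± 0.18 (adjusted p = 0.00972, edgeR), and the lowest ESC library was replicate 3, which stood apart. PCDH1 was 36.4% ± 2.63 of non-clustered counts in NPC RNA and 75.7% ± 7.70 in ESC RNA, while PCDH18 was 37.7% ± 2.40 in NPC and 7.45% ± 2.78 in ESC (SD, n = 3 each). PCDH8, known as paraxial protocadherin in frogs and named here after its values were seen, was at 0.376, 0.308 and 0.535 CPM in NPC, against 0.869, 1.16 and 0.971 CPM in ESC (log2 fold change -1.30 ± 0.31, adjusted p = 0.00821). PCDH10, which recruits the WAVE complex in mouse, was at 9.58, 9.37 and 9.93 CPM in NPC, against 12.5, 14.8 and 12.4 CPM in ESC. Its log2 fold change of -0.46 ± 0.14 (adjusted p = 0.0227) lost the call without ESC replicate 2 or any 1 of the NPC replicates (adjusted p = 0.0578 to 0.0988). PCDH12, PCDH15 and PCDH20 had too few counts to be tested.

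Ribosome-bound RNA told the states apart for fewer members. At the lower depth 40 of the 67 members could be tested, of which 17 (42.5%) were higher and 4 (10%) lower in NPC, against 31.6% and 30.3% of the 12250 genes tested (61.8% in either direction). At least 2-fold higher were 14 of them, against 24.6% of all genes tested. By class, 0 alpha genes were higher and 1 lower of 8, 5 beta genes higher and 1 lower of 11, 6 gamma genes higher and 1 lower of 13, and 6 non-clustered genes higher and 1 lower of 8. In 9 of the 40 (PCDH7, PCDH17, PCDH19, PCDHA9, PCDHB4, PCDHB10, PCDHGB2, PCDHGA8 and PCDHGA12) all 3 libraries passed the filter only in NPC, so they could pass only by being high there, and 8 of these are among the 17 rises. Of the other 31 members 9 rose (29.0%) and 4 fell. Of the 27 that passed in both states 9 rose and 3 fell, against 29.5% and 30.6% of all genes that passed in both, so the share of rises was near that of all genes. PCDHB3 passed only in ESC. Without ribosome-bound ESC replicate 2, 19 were higher and 5 lower, and without ESC replicate 1, 7 were lower. Every NPC library lay above every ESC library for 18 of the 40, against 35% of all genes tested, and below for 4, against 32.1%. Across the 40 members, which share libraries, the changes in the 2 assays correlated (Pearson r = 0.752, Spearman rho = 0.748), and 30 had the same sign.

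Class sums differed less between the states than in RNA. Ribosome-bound beta RNA summed to 161.7 ± 14.98 CPM in NPC and 117.96 ± 23.3 CPM in ESC, 1.37-fold, and gamma to 436.3 ± 43.2 CPM in NPC and 378.4 ± 72.9 CPM in ESC, 1.15-fold. Alpha summed to 103.5 ± 7.96 CPM in NPC and 122.7 ± 34.9 CPM in ESC, 0.843-fold, and non-clustered to 513.8 ± 47.7 CPM in NPC and 542.2 ± 144.3 CPM in ESC, 0.948-fold (SD, n = 3 each). Only the beta sums did not overlap between the states. The sums of ESC replicate 2 were the highest of the ESC libraries in all 4 classes, and without it the alpha fold was 1.01 and the non-clustered fold 1.12.

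PCDH7 and PCDH18 also had the largest rises of the non-clustered genes in ribosome-bound RNA. PCDH7 was at 63.3, 63.2 and 75.4 CPM in ribosome-bound NPC RNA, against 0.943, 1.3 and 2.43 CPM in ESC, a log2 fold change of 5.35 ± 0.31 (adjusted p = 2.97e-07, edgeR). PCDH18 was at 240, 197 and 221 CPM in NPC, against 22, 21.2 and 22.4 CPM in ESC, with 3.32 ± 0.20 (adjusted p = 3.24e-07). In the beta cluster PCDHB10 was at 24.8, 12.6 and 16 CPM in NPC, against 2.51, 1.3 and 2.7 CPM in ESC (2.95 ± 0.39, adjusted p = 5.68e-05). The states did not overlap for any of the 3. PCDHB4 was at 4.52, 4.21 and 3.42 CPM in NPC, against 0.943, 0 and 0.27 CPM in ESC, a log2 fold change of 3.11 ± 0.66 (adjusted p = 0.00153), or 4.33 without ESC replicate 1.

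Translational efficiency sets a gene's ribosome-bound level against its RNA level, relative to the other genes of each library. Of 40 members tested, 5 were higher (12.5%) and 9 lower (22.5%) in NPC, against 22.9% and 19% of the 11866 genes tested (41.9% in either direction). At least 2-fold higher were all 5 rises, 12.5% of the 40 tested, against 19.1% of all genes tested. Of these, PCDHGA8, PCDHGA12, PCDHB4 and PCDH19 passed the ribosome-bound filter only in NPC, where they are high. The rise outside that set was PCDH11X. The median log2 change was -0.31 over the members and -0.05 over all genes tested. In the clusters 3 genes were higher and 8 lower of 32, and of the non-clustered genes 2 were higher and 1 lower of 8. Without ESC RNA replicate 3, 14 members were lower, a count not set here against all genes in that fit. The mesoderm and endoderm markers given above were more than 20 times as high in ribosome-bound as in total RNA of ESC, the labels do not say whether both assays used the same cultures, and the part of this in the efficiency of ESC was not tested.

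By class, efficiency fell for 1 of 8 alpha (12.5%), 2 of 11 beta (18.2%), 5 of 13 gamma (38.5%) and 1 of 8 non-clustered genes (12.5%). Among all genes tested 19% fell. PCDHB3 was at 2.26, 5.9 and 3.87 CPM in ribosome-bound NPC RNA, against 8.17, 22.5 and 9.71 CPM in ESC, and it passed the ribosome-bound filter only in ESC. Its RNA was at 7.97, 7.64 and 7.82 CPM in NPC, against 5.67, 5.67 and 6.95 CPM in ESC, without overlap but not called (0.36 ± 0.15, adjusted p = 0.0728, edgeR). Without ESC RNA replicate 3 it was called, at 0.46 (adjusted p = 0.00392), as it was with total-count scaling (adjusted p = 0.0493). Its efficiency fell by 2.09 ± 0.49 on the log2 scale (adjusted p = 0.00345, edgeR). PCDHB5 was at 41.3, 26.1 and 28.9 CPM in ribosome-bound NPC RNA, against 34.6, 44.7 and 38.3 CPM in ESC, overlapping between the states. With RNA of 15.4, 14.5 and 15.2 CPM in NPC, against 8.44, 8.11 and 6.59 CPM in ESC, its efficiency fell by 1.30 ± 0.28 (adjusted p = 0.00159). PCDHGC4 had ribosome-bound levels of 80, 57 and 76.8 CPM in NPC, against 72.6, 114 and 72.3 CPM in ESC, and its efficiency fell by 1.08 ± 0.28 (adjusted p = 0.00587).

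PCDHA11, PCDHGB5 and PCDH1 were lower in RNA, in ribosome-bound RNA and in efficiency. PCDHA11 was at 7.1, 5.9 and 9.8 CPM in ribosome-bound NPC RNA, against 25.1, 31.2 and 24.3 CPM in ESC, and its efficiency fell by 1.01 ± 0.31 on the log2 scale (adjusted p = 0.0146, edgeR). PCDHGB5 was at 13.6, 7.86 and 6.61 CPM in NPC, against 33, 43.8 and 39.7 CPM in ESC, and its efficiency fell by 1.16 ± 0.33 (adjusted p = 0.0112). PCDH1 was at 157, 130 and 159 CPM in NPC, against 370, 633 and 432 CPM in ESC, and its efficiency fell by 1.02 ± 0.30 (adjusted p = 0.0137). The states did not overlap for any of these in ribosome-bound RNA. PCDHGA11 fell in efficiency by 1.31 ± 0.44 (adjusted p = 0.0246), which lost the call without NPC RNA replicate 1, ribosome-bound ESC replicate 2, or ribosome-bound NPC replicate 1 or 2 (adjusted p = 0.0514 to 0.0709). The other 2 falls, PCDHGB1 (adjusted p = 0.0478) and PCDHGA10 (adjusted p = 0.0437), lost the call when replicates were blocked (adjusted p = 0.0581 and 0.0649). PCDHGB1 also lost it without any library other than ESC RNA replicate 3 and ribosome-bound NPC replicate 1 (adjusted p = 0.0541 to 0.108). PCDHGA10 lost it without ESC RNA replicate 1 or 2, any NPC RNA replicate, ribosome-bound ESC replicate 2, or ribosome-bound NPC replicate 2 or 3 (adjusted p = 0.0572 to 0.107).

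PCDH11X rose in ribosome-bound RNA with little difference in total RNA. It was at 21.9, 17.4 and 17.8 CPM in ribosome-bound NPC RNA, against 3.46, 6.07 and 3.24 CPM in ESC, a log2 fold change of 2.20 ± 0.31 (adjusted p = 8.9e-05, edgeR). Its RNA was at 49, 44.7 and 49.1 CPM in NPC, against 38.4, 35.7 and 52.2 CPM in ESC, which overlapped (0.18 ± 0.16, adjusted p = 0.379). Without ESC RNA replicate 3 that RNA difference was called, at 0.36 (adjusted p = 5.4e-05). Its efficiency rose by 1.99 ± 0.35 (adjusted p = 0.0004). PCDH11X shares near-identical sequence with PCDH11Y, and no source used here says where a read that matches both was counted, so its values are uncertain. PCDH19 was at 16.5, 17.1 and 16.6 CPM in ribosome-bound NPC RNA, against 0.628, 3.47 and 4.32 CPM in ESC, and its efficiency rose by 1.64 ± 0.46 (adjusted p = 0.0094), or 2.23 without ribosome-bound ESC replicate 3.

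Of the 12 PCDHGA genes, 8 had few ribosome-bound ESC counts, 21 together against 193 in NPC. Their RNA counts were 991 in ESC and 2355 in NPC. This group was made after the counts were seen. The others, PCDHGA10, PCDHGA11, PCDHGA2 and PCDHGA3, had 635, 111, 29 and 22 ribosome-bound counts in ESC, against 688, 93, 14 and 27 in NPC. PCDHGA8 had 46 ribosome-bound counts over the 3 NPC libraries and 1 over the 3 ESC libraries. It was called higher in ribosome-bound RNA (adjusted p = 0.00035, edgeR) and in efficiency (adjusted p = 0.00248). PCDHGA8, PCDHGA12 and PCDHB4 passed the ribosome-bound filter only in NPC, so their calls are given as a description. Of all genes that passed in that way, 77.1% were called higher in ribosome-bound RNA and 42.0% in efficiency. PCDHGA12 was at 3.55, 3.09 and 5.24 CPM in ribosome-bound NPC RNA, against 0.628, 0.434 and 0.27 CPM in ESC, with a log2 fold change of 3.10 ± 0.60 (adjusted p = 0.000803). Its efficiency rose by 2.56 ± 0.75 (adjusted p = 0.0123), a call lost without ribosome-bound ESC replicate 3 (adjusted p = 0.0527). The fifth rise in efficiency, PCDHB4 (2.21 ± 0.76, adjusted p = 0.0294), rested on 4 ribosome-bound ESC counts. It was lost without any 1 of 6 libraries, namely replicate 1 of ESC RNA or of NPC RNA, ribosome-bound ESC replicate 2 or 3, and ribosome-bound NPC replicate 1 or 2 (adjusted p = 0.0547 to 0.101), and it was 3.56 without ribosome-bound ESC replicate 1.

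Members below the filter in ribosome-bound RNA were read as counts. PCDHGA5 and PCDHGA7, named after their values were seen, had 28 and 20 ribosome-bound counts in NPC and 0 in ESC. They were 7.77-fold and 5.55-fold higher with 3 counts set over the ESC group. The 95% intervals of their count ratios began at 5.91 and 4.11. PCDHGA5 and PCDHGA7 RNA had passed the test, at 0.74 ± 0.26 (adjusted p = 0.042, edgeR) and 1.28 ± 0.21 (adjusted p = 0.0013) on the log2 scale, and PCDHGA5 lost it with the replicate block (adjusted p = 0.0581). That RNA call of PCDHGA5 was also lost without ESC replicate 1 or 2 or NPC replicate 2 or 3 (adjusted p = 0.0601 to 0.142). PCDHB9, also named after its values were seen, had 37 counts in NPC and 4 in ESC, a ratio of 7.70 after scaling (95% interval 2.77 to 29.7). PCDHGC5 had 21 counts in NPC and 1 in ESC, a ratio of 17.5 (2.81 to 722.8). PCDHB1, which fell in RNA, had 0 counts in NPC and 7 in ESC. It was 2.804-fold lower with 3 counts set over the NPC group, and the 95% interval of its count ratio ended at 0.577. PCDHGA2 had 14 counts in NPC and 29 in ESC, a ratio of 0.402 (0.196 to 0.785). PCDH8 had 10 in NPC, all in replicate 3, and 34 in ESC, a ratio of 0.245 (0.108 to 0.507). PCDH15 had 0 in NPC and 7 in ESC, as PCDHB1 did. The interval also lay below 1 for PCDHB2, given below, and above 1 for PCDHA5, PCDHA6, PCDHB7, PCDHGA6 and PCDHGA9. These genes were taken after their values were seen.

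The level of the ratio differed widely between members. Over 8588 protein-coding genes with at least 10 CPM of RNA in each state, the median ratio of ribosome-bound to RNA CPM was 0.741 in NPC and 0.654 in ESC, and 16 protocadherins are among them. PCDHB2 lay near the bottom. It had RNA of 79.5, 81.1 and 77 CPM in NPC, against 57.1, 53.4 and 54.2 CPM in ESC (log2 fold change 0.53 ± 0.10, adjusted p = 0.00214, edgeR). Its ribosome-bound level was 0, 0.562 and 0.228 CPM in NPC, against 1.57, 3.04 and 1.89 CPM in ESC, from 3 and 19 counts. The count ratio of NPC over ESC was 0.131 (95% interval 0.0249 to 0.446). Its ribosome-bound level over its RNA level was 0.00332 in NPC and 0.0395 in ESC, below which lay 0.198% of the 8588 genes in NPC and 1.47% in ESC. PCDHB15, the next beta gene in RNA, had ratios of 1.05 in NPC and 1.11 in ESC.

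The 6 gamma genes among these 16 lay above the median in both states. PCDHGC4 had a ratio of 2.92 in NPC and 5.98 in ESC, and 94.7% of the genes in NPC and 98.6% in ESC lay below it. PCDHGC3 had 2.699 in NPC and 3.09 in ESC, and PCDHGB4 had 2.50 in NPC and 3.73 in ESC. The others were PCDHGB6, PCDHGB7 and PCDHGA10. Gamma genes with less RNA lay on both sides of the medians. PCDHGB5 had ratios of 2.065 in NPC and 4.36 in ESC. PCDHGA6, with 2 ribosome-bound ESC counts, had 0.494 in NPC and 0.0653 in ESC. PCDHGC5, the third C-type gamma gene, had too little RNA to be among the 16, and its ratios were 0.496 in NPC and 0.052 in ESC, where it had 1 ribosome-bound count. The C-type alpha genes were lower, at 0.348 in NPC and 0.563 in ESC for PCDHAC1 and 0.517 in NPC and 0.501 in ESC for PCDHAC2. Whether counts of the assays are spread over the same exons was not examined here, so a ratio can also hold a difference in how shared exons were counted, and its part was not tested.

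**Figure D4:**
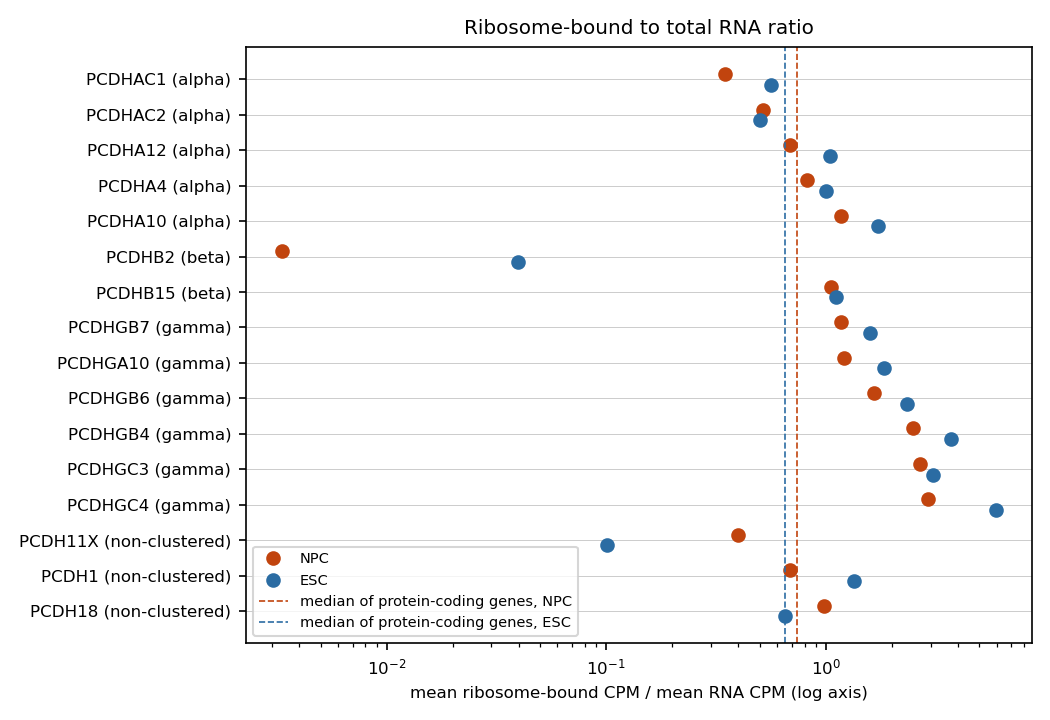
Ratio of mean ribosome-bound CPM to mean RNA CPM (log axis) for the 16 protocadherins with at least 10 CPM of RNA in both states, in NPC (orange) and ESC (blue); dashed lines are the medians of 8588 protein-coding genes, 0.741 in NPC and 0.654 in ESC. PCDHB2 lies far to the left of all others, and PCDHGC4, PCDHGC3 and PCDHGB4 lie furthest right.

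Of the factors that loop, choose and silence clustered promoters, few rose in RNA and most rose in ribosome-bound RNA. Of 19 such genes, RNA of 2 rose and of 6 fell in NPC, against 26.4% and 26.2% of all genes tested. Ribosome-bound RNA of 13 rose and of 1 fell, against 31.6% and 30.3%, and efficiency of 11 rose and of 0 fell, against 22.9% and 19%. CTCF, which binds the promoters and enhancers, was at 133.2 CPM in NPC RNA and 147.5 CPM in ESC RNA (log2 fold change -0.15 ± 0.10, adjusted p = 0.24, edgeR), and rose by 1.73 ± 0.22 in ribosome-bound RNA (adjusted p = 3.8e-05). SMCHD1, a silencer of the clusters in mouse, passed no test, with 81.1 CPM in NPC RNA and 68.4 CPM in ESC RNA. DNMT3B, the methyltransferase that marks these promoters in mouse embryos, was at 407.3 CPM in NPC RNA and 3253 CPM in ESC RNA and fell by 2.998 ± 0.104 on the log2 scale (adjusted p = 5.53e-07), and by 1.82 ± 0.34 in ribosome-bound RNA (adjusted p = 0.000659). In RNA, MAU2, a cohesin loader subunit (0.60 ± 0.18, adjusted p = 0.0255), and SETDB1, a histone methyltransferase (0.28 ± 0.09, adjusted p = 0.0316), were the rises. SMC3, a cohesin subunit, had the largest fall after DNMT3B (-0.67 ± 0.20, adjusted p = 0.0203). In ribosome-bound RNA TET3 rose by 1.66 ± 0.25 (adjusted p = 0.000158), and its efficiency, with that of SMC3 (1.92 ± 0.42, adjusted p = 0.00213), had the largest rises, 2.07 ± 0.26 (adjusted p = 2.5e-05) for TET3.

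Intracellular partners and other cadherins gave a mixed picture. A list of 19 intracellular partners held kinases, proteases, WAVE-complex genes, CTNNB1, AXIN1, KIF5B and SH3KBP1. Of these, 5 rose and 4 fell in RNA, near the 26.4% and 26.2% of all genes tested. In ribosome-bound RNA 13 rose and 4 fell, against 31.6% and 30.3%, and in efficiency 11 rose and 1 fell, against 22.9% and 19%. FYN, a kinase bound by alpha protocadherins in mouse, rose by 1.00 ± 0.10 in RNA (adjusted p = 9.1e-05, edgeR) and 2.99 ± 0.21 in ribosome-bound RNA (adjusted p = 6.71e-07), and RET, a receptor kinase that phosphorylates clustered protocadherins, fell by 1.41 ± 0.14 (adjusted p = 9.99e-05) and 1.91 ± 0.26 (adjusted p = 6.11e-05). The adaptor SH3KBP1 fell by 1.07 ± 0.16 in RNA (adjusted p = 0.000873), and its efficiency rose by 2.97 ± 0.31 (adjusted p = 5.05e-06). PTK2B, a focal adhesion kinase relative, rose by 2.33 ± 0.31 in ribosome-bound RNA (adjusted p = 6.32e-05). ADAM10, the protease that sheds cadherin ectodomains, fell by 1.04 ± 0.22 in ribosome-bound RNA (adjusted p = 0.00147) and by 0.77 ± 0.29 in efficiency (adjusted p = 0.0397).

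Of the FAT, DCHS, CELSR and CDHR group, 6 genes were higher and 4 lower of 11 in RNA, against 26.4% and 26.2% of all genes tested, with FAT2 (2.10 ± 0.15, adjusted p = 1.76e-05) and FAT1 (1.43 ± 0.12, adjusted p = 3.72e-05) at the top and CDHR1 (-2.92 ± 0.19, adjusted p = 8.92e-06) at the bottom. Of the classical cadherins 6 were higher and 5 lower of 12, against the same shares, with rises of CDH10 (3.98 ± 0.27, adjusted p = 1.22e-05) and CDH11 (2.86 ± 0.14, adjusted p = 2.4e-06) and falls of CDH4 (-1.75 ± 0.21, adjusted p = 0.000235) and CDH1, E-cadherin (-1.69 ± 0.09, adjusted p = 3.8e-06). In ribosome-bound RNA, where 31.6% of all genes tested were higher and 30.3% lower, 5 of 11 genes of the FAT group rose and 5 fell, led by FAT2 and CDH23, the gene of an inner ear tip link cadherin (2.48 ± 0.28, adjusted p = 1.71e-05), and by CDHR1 (-3.45 ± 0.49, adjusted p = 9.21e-05) and FAT4 (-2.47 ± 0.32, adjusted p = 4.69e-05). Of 9 classical cadherins 5 rose and 3 fell, led by CDH11 (3.35 ± 0.24, adjusted p = 8.17e-07) and CDH10 (3.05 ± 0.45, adjusted p = 0.000129), and by CDH3, P-cadherin (-1.87 ± 0.25, adjusted p = 6.39e-05) and CDH1 (-1.61 ± 0.21, adjusted p = 4.81e-05).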

How the data were processed

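The authors deposited raw read counts for each gene symbol, not normalized, with 1 column per library (0 other columns). Per the submitters' processing notes, cutadapt 1.18, Bowtie 1.2, STAR 2.7.1a and featureCounts 1.6.4 were used with hg38 and GRCh38. The annotation, strand use and treatment of multiply matching or shared-exon reads, and whether ribosome-bound reads are footprints, are not stated in the labels or headers.

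Members and lists were chosen with earlier results of these data known. Counts of all genes were fitted with edgeR 4.0.16 in R 4.3.3 (TMM, filterByExpr, quasi-likelihood F test, Benjamini-Hochberg adjusted p under 0.05), each assay alone, and efficiency as the interaction of assay and state over 12 libraries. The tests were checked on simulated counts. The standard error is the log2 fold change divided by the square root of F. Genes named were, per class, the 3 highest in RNA, the 3 largest rises and falls in RNA with at least 1 CPM in the higher state, the 2 largest rises and falls in each other comparison, and the C-type genes. From the other lists they were taken from the 2 largest rises and falls per comparison, with CTCF, SMCHD1 and DNMT3B. A gene that this rule also takes is not reported here. PCDHB1, PCDHB9, PCDHB16, PCDHGA5, PCDHGA7, PCDHGB1, PCDHGB4, PCDH8 and PCDH17 fall outside it and were named after their values were seen. The same holds for PCDHA5, PCDHA6, PCDHGA2, PCDHGA6, PCDHGA9 and PCDH15, named for their ribosome-bound counts. Left out by the rule were 6 symbols with a pseudogene ending and 4 antisense symbols.

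Alternatives were total-count scaling, DESeq2 1.42.0 size factors and test, limma 3.58.1 voom, no filter, a filter at a mean of 1 CPM, each library left out, and the replicate number as a block. A fit without both ESC libraries that stood apart was added after seeing the data. Same-numbered RNA libraries deviated together weakly (r = 0.185, 0.143 and 0.384), while ribosome-bound ones did not (r = -0.176, -0.253 and -0.00773). ESC RNA replicate 2 deviated most with NPC RNA replicate 1, so these values do not settle whether RNA libraries are paired by number. No 2 libraries of a group agreed within sampling noise. Names, spans and promoters came from RefSeq tables of GRCh38.p14. Tables and figures were made in Python 3.11.15 (numpy 2.4.6, pandas 2.3.3, matplotlib 3.10.9 and scipy 1.17.1).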

Additional observations from a re-analysis of the deposited data

How the results depend on the processing

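No called member changed direction under any setting run, but the alpha and non-clustered ribosome-bound sums crossed 1-fold without ribosome-bound ESC replicate 2. Counts of members past the threshold moved by over 1.5 times in 6 cases. In ribosome-bound RNA 7 members were lower with no filter and 7 without ESC replicate 1, against 4. In efficiency 9 were higher with the stricter filter, against 5, and against 9 lower there were 16 with DESeq2, 14 without ESC RNA replicate 3, and 14 without that library and ribosome-bound ESC replicate 2. Leaving out a library in turn gave 28 to 44 members higher and 6 to 10 lower in RNA, 16 to 19 higher and 4 to 7 lower in ribosome-bound RNA, and 4 to 6 higher and 6 to 14 lower in efficiency. Total-count scaling gave folds of 1.25 for the alpha sum and 1.84 for the gamma sum in RNA. Leaving out a library gave folds of 1.17 to 1.22 (alpha), 1.70 to 1.82 (beta), 1.73 to 1.79 (gamma) and 1.16 to 1.33 (non-clustered) in RNA, and of 0.778 to 1.01, 1.29 to 1.55, 1.08 to 1.30 and 0.859 to 1.12 in ribosome-bound RNA. With the replicate block, 35 members were higher and 9 lower in RNA, 16 and 4 in ribosome-bound RNA, and 5 and 7 in efficiency. It ended the calls of PCDHGA5 in RNA, PCDHGC3 in ribosome-bound RNA (adjusted p = 0.0601, edgeR) and PCDHGA10 and PCDHGB1 in efficiency, and no other. Of the values under alternatives for genes taken by the naming rule, 48 lost a call, 20 gained one and 1311 did neither. Genes named after their values were seen are not in these counts, and PCDHGB1 and PCDHGA5 among them lost calls as given above. The causes were not tested. Depth limits the ribosome-bound results, where 27 of the 67 members were not tested.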
